A study of Mus musculus with 18 samples.

Results

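Bone morphogenetic proteins (BMPs), their receptors, the inhibitory SMADs and the Id genes are described here in 3 populations of mouse intestinal crypt cells. The 10 genes were picked by name for their role: the ligands Bmp2, Bmp4 and Bmp7, the receptors Bmpr1a and Bmpr2, the inhibitory SMADs Smad6 and Smad7, and the target genes Id1, Id2 and Id3. All 10 are among the 16358 genes measured, and no filter on low values was applied. They carried 85 probe sets, from 3 for Bmp2 to 18 for Bmpr2.

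The 6 mice were female, 99 to 109 days old, and labelled with the strain H2B-YFP. Each carried the Cyp1a1-H2B-YFP transgene, in which the Cyp1a1 promoter drives a histone H2B fused to yellow fluorescent protein (YFP) when βNF (beta-naphthoflavone) is given. All mice were taken 10 days after induction with βNF, so the 3 populations share the transgene and the treatment, and there was no uninduced group. From each mouse, 30000 cells per population were sorted with an antibody to CD24 and the lectin UEA-1. Paneth cells were CD24+/UEA+. YFP-LRCs, the label-retaining cells, were CD24+/UEA-/YFP+. LCCs were CD24+/UEA-/YFP-. Which cells could carry the label depended on where the Cyp1a1 promoter was active at induction. With 1 array per population and mouse, each population had 6 arrays, numbered here by mouse. The litter label of the YFP-LRC sample of mouse 6 differed from that of the other samples with this number.

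BMP ligands bind complexes of type I receptors, such as BMPR1A, and type II receptors, such as BMPR2. The receptors phosphorylate SMAD1, SMAD5 and SMAD9 (also called SMAD8), which enter the nucleus with SMAD4 and switch on target genes. The Id genes are classic targets: their proteins lack a DNA-binding region and hold E proteins away from DNA. SMAD6 and SMAD7 are induced by the pathway and limit it. In the small intestine BMP signalling is known to be low at the crypt base, where antagonists from stromal cells block it, and higher towards the villus. BMP signalling is also known to restrain stem cell self-renewal.

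Values are log2 RMA values per gene (the median over a gene's probe sets), and differences are log2 differences, from limma over all 18 arrays with Benjamini-Hochberg adjustment over all genes. Errors after a mean are SDs (n = 6 arrays) and errors after a difference are standard errors. Calls are differences with an adjusted p under 0.05. The LCC arrays reached lower correlations than the others, though the ranges overlapped. Their median correlation with the other 17 arrays was 0.825 to 0.938, against 0.916 to 0.950 for the YFP-LRC arrays and 0.929 to 0.947 for Paneth. LCC arrays 5 and 6 had the lowest values, 0.872 and 0.825. The difference from LCC also moved with a gene's level: among genes with a mean above the median gene mean, 11.3% were called higher and 0.575% lower in YFP-LRC, while at or below it these shares were 1.36% and 1.26%. The mean of 6 epithelial markers, all measured, was 9.52 to 10.60 in LCC, 10.40 to 10.70 in YFP-LRC and 10.59 to 11.08 in Paneth samples. The mean of 7 Paneth cell markers was 9.22 to 10.31, 10.05 to 11.21 and 11.25 to 12.04 in the same order. The mean of 12 stromal markers was 6.06 to 6.37, 5.93 to 6.18 and 5.79 to 6.01 in that order. The mean of 6 enteroendocrine markers was 8.23 to 8.95, 8.69 to 9.17 and 7.54 to 7.84. The mean of 5 stem cell markers was 7.07 to 7.66, 7.84 to 8.32 and 7.88 to 8.65, with LCC below both others, and 4 of the 5 (Lgr5, Smoc2, Soat1 and Axin2) were called higher than in LCC in both populations. The mean of the 5 enterocyte markers measured, of 7, overlapped at 9.65 to 10.93, 9.46 to 10.40 and 9.59 to 10.55. Fabp2 was called lower than in LCC in both populations and Fabp1 higher in Paneth. Of 8 myeloid markers, Tyrobp and Il1b were called lower in YFP-LRC and in Paneth than in LCC, while Plek was called higher in Paneth than in both others. The mean of the 8 was 6.34 to 6.68 in LCC, 6.04 to 6.22 in YFP-LRC and 6.37 to 6.63 in Paneth. Of 6 endothelial markers Emcn was called lower in Paneth. None of 9 T cell markers was called by limma, with 2 and 3 at an unadjusted p under 0.05 against LCC. The gate's own Cd24a was not analysed here. The part of these levels in the differences from LCC was not tested.

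In YFP-LRCs against LCCs, Bmp7 and Bmpr2 were called higher and Smad6 lower, and the other 7 genes were not called. Over all genes, 6.33% were called higher and 0.917% lower in this comparison. In Paneth cells against LCCs, Bmp7, Bmpr1a and Bmpr2 were called higher and Bmp4 and Smad6 lower, against 12% and 2.53% of all genes. Bmp7, Bmpr1a, Bmpr2 and Smad6 lie above the median gene mean, where these shares were 20.1% and 1.37%. Bmp4 lies at or below it, where they were 3.8% and 3.69%. Between YFP-LRCs and Paneth cells none of the 10 was called by limma in either direction, against 0.055% of all genes called higher and 0.3% lower (0.355% in all). Bmp4 alone, 1 of the 10, had an unadjusted p under 0.05 there, as did 5.52% of all genes. With residual spread per array as a covariate, Bmp7 in Paneth against LCC was the only call left among the 10 genes. That spread was 0.329 to 0.419 in LCC, 0.249 to 0.362 in YFP-LRC and 0.240 to 0.309 in Paneth. It largely followed the population, so spread and population cannot be told apart in that fit. With LCC arrays 1 and 4 alone, the LCC arrays with the highest correlation with the others, none was left. Most of the other arrays are of the other populations, so this choice can itself lessen differences from LCC. It also leaves fewer LCC arrays. A further quantile normalization ended both calls of higher genes in YFP-LRC against LCC (Bmp7 0.74, adjusted p = 0.0591, and Bmpr2 0.71, adjusted p = 0.103). The first and second comparisons share the LCC arrays, so their values for a gene are not independent. The median difference of the 10 genes was -0.05, -0.09 and -0.05 in these comparisons, and that of all genes was 0.04, 0.03 and 0.00. In bulk samples, fewer cells of a type and less RNA per cell cannot be told apart.

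**Figure D1:**
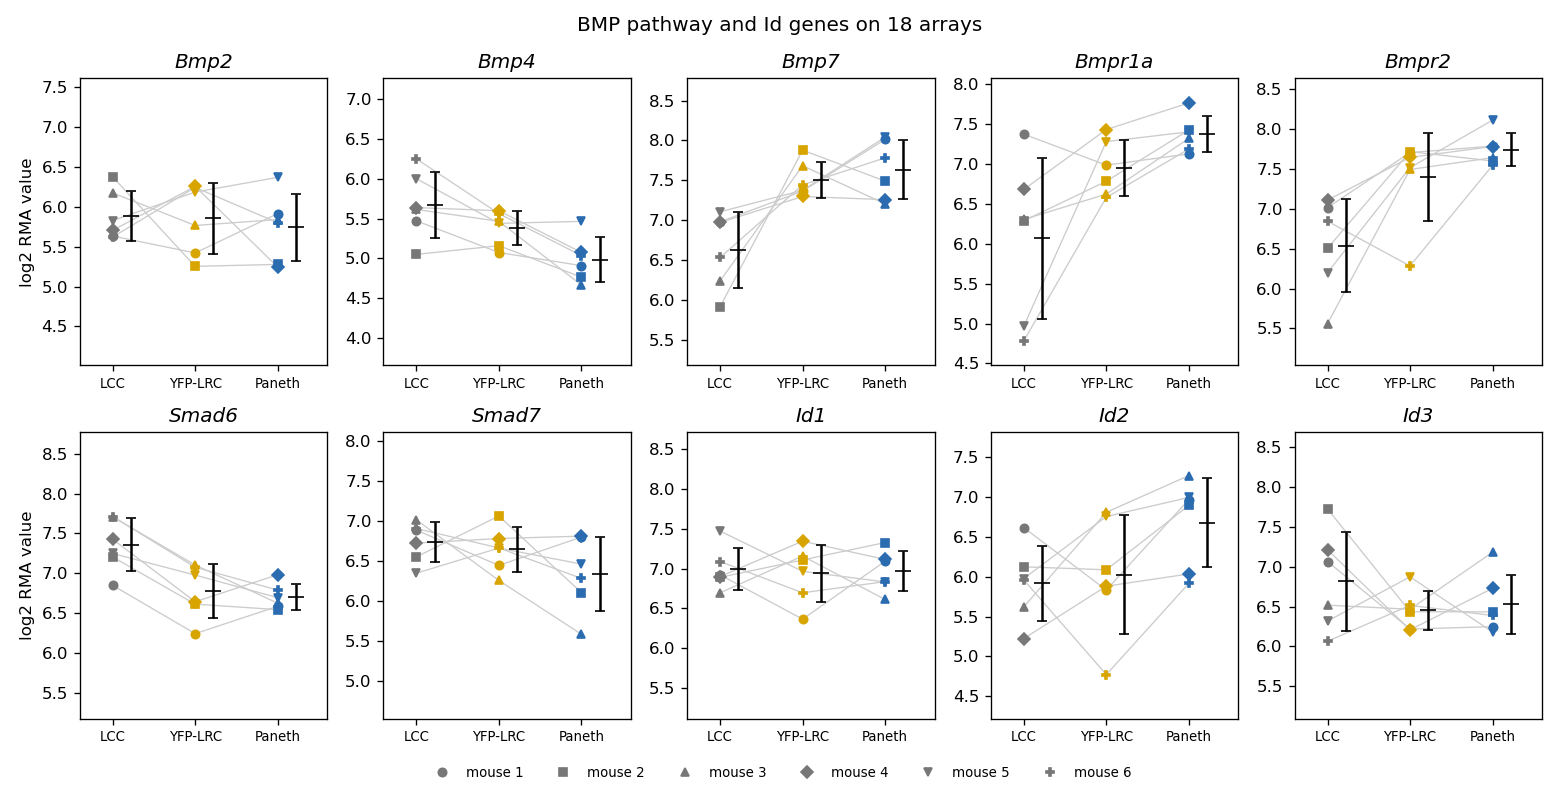
Log2 RMA value of each of the 10 genes on every array, by population (LCC, YFP-LRC, Paneth). Each marker is a mouse, grey lines join the arrays of a mouse, and black bars are the mean ± SD of 6 arrays. The y axes span the same height but start at different values. The Bmp7 points of LCC, 5.91 to 7.11, lie below all points of the other populations, while the Id1 points of the 3 populations overlap.

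Bmp7, a ligand of the BMP family, was the only one of the 10 genes whose LCC values overlapped neither other population. Its log2 values were 5.91 to 7.11 (median 6.75) in LCC, 7.30 to 7.88 (median 7.41) in YFP-LRC and 7.21 to 8.04 (median 7.64) in Paneth. Every YFP-LRC and Paneth array was above every LCC array. Of all genes, 1.94% were higher without overlap in YFP-LRC against LCC and 3.58% in Paneth against LCC, and 9.87% and 9.73% were higher in all 6 mice. The mean was 6.62 ± 0.48 in LCC, 7.51 ± 0.23 in YFP-LRC and 7.63 ± 0.37 in Paneth. The YFP-LRC level was 0.88 ± 0.21 above that of LCC (1.84-fold, limma adjusted p = 0.0179, higher in 6 of 6 mice). In Paneth it was 1.01 ± 0.21 higher than in LCC (2.01-fold, adjusted p = 0.00396, 6 of 6 mice). YFP-LRC and Paneth differed by -0.12, with a 95% interval of -0.56 to 0.31. The YFP-LRC call held without any single array but was lost without mouse 2, 3 or 6 (adjusted p 0.0899, 0.0802 and 0.0508). With LCC represented by arrays 1 and 4 alone the difference was 0.53 for YFP-LRC (adjusted p = 0.526) and 0.66 for Paneth (adjusted p = 0.262).

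Bmp4, the ligand that in the gut is made mainly by stromal cells, was lower in Paneth than in LCC. Its log2 values were 5.05 to 6.25 (median 5.63) in LCC, 5.07 to 5.60 (median 5.45) in YFP-LRC and 4.67 to 5.47 (median 4.97) in Paneth. The ranges overlapped, and within each mouse the Paneth array was below the LCC array, as for 5.23% of all genes. The Paneth difference from LCC was -0.68 ± 0.18 (adjusted p = 0.0175), a level 1.61-fold higher in LCC. YFP-LRC lay between them, -0.29 ± 0.18 from LCC (adjusted p = 0.342) and 0.40 ± 0.18 from Paneth (adjusted p = 0.871). Without LCC arrays 5 and 6, the highest Bmp4 values among LCC, the Paneth difference was -0.46 (adjusted p = 0.125), and without mouse 3 or 6 the adjusted p was 0.0787 or 0.0672. The mean of Bmp4's 5 probe sets gave -0.38 (adjusted p = 0.0531). All 5 were below 0 in Paneth against LCC, with 0 called by limma at probe set level. Only 1 of the 5 was brighter than the median of all probe set values. The mean of Bmp4 over all arrays, 5.35, was at or below the median gene mean. Among the stromal markers, listed as 12 genes, Gli1 was called lower in Paneth and in YFP-LRC than in LCC, and the part of such cells in the Bmp4 difference was not tested.

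Bmp2, another BMP ligand, was not called in any comparison. Log2 values of Bmp2 were 5.62 to 6.38 (median 5.77) in LCC, 5.25 to 6.26 (median 5.97) in YFP-LRC and 5.24 to 6.37 (median 5.82) in Paneth, and the 3 ranges overlapped almost wholly. The difference of YFP-LRC from LCC was -0.04, with a 95% interval of -0.49 to 0.42. Paneth differed from LCC by -0.15 (-0.61 to 0.31). These rest on 3 probe sets, of which 1 was called higher in Paneth than in LCC (1.20) while the other 2 were below 0. The called probe set was the brightest, with a mean over all arrays of 6.50 against 5.64 and 5.66. In YFP-LRC against Paneth it gave -1.16 (limma adjusted p = 0.173). None of the 3 was brighter than the median of all probe set values.

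Both BMP receptors among the 10 genes were called higher in Paneth than in LCC. Bmpr2, the type II receptor, had log2 values of 5.56 to 7.11 (median 6.68) in LCC, 6.28 to 7.72 (median 7.58) in YFP-LRC and 7.54 to 8.11 (median 7.71) in Paneth. Every Paneth array was above every LCC array, as for 3.58% of all genes. YFP-LRC overlapped LCC through the array of mouse 6 alone, at 6.28. The other 5 YFP-LRC arrays were at 7.49 or above. The Paneth mean of 7.74 ± 0.20 was 1.21 above the LCC mean of 6.54 ± 0.59 (standard error 0.26, 2.31-fold, adjusted p = 0.00503, higher in 6 of 6 mice). The YFP-LRC mean of 7.39 ± 0.55 was 0.85 ± 0.26 above LCC (1.81-fold, adjusted p = 0.0483, 5 of 6 mice). That call stood close to the threshold: it was lost without any 1 of 15 arrays, that is, all but LCC 1, LCC 4 and YFP-LRC 6, with adjusted p up to 0.107. Without YFP-LRC 6 the difference was 1.08 (adjusted p = 0.0112). The call was also lost without any mouse but mouse 6, with adjusted p up to 0.178. The Paneth call held without any single array or mouse, but with LCC arrays 1 and 4 alone the difference was 0.68 (adjusted p = 0.373), against 0.33 (adjusted p = 0.815) for YFP-LRC.

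Bmpr1a, the type I receptor, had the widest spread of the 10 genes, and it lay in LCC. Its log2 values ran from 4.78 to 7.38 in LCC (median 6.30), from 6.58 to 7.43 in YFP-LRC (median 6.89) and from 7.13 to 7.77 in Paneth (median 7.36). LCC 5 and 6 stood at 4.97 and 4.78, and LCC 1 at 7.38 lay inside the Paneth range. The LCC SD of 1.01 was exceeded by 2.51% of genes. Paneth was 1.31 ± 0.33 above LCC (2.47-fold, adjusted p = 0.0127, 5 of 6 mice). YFP-LRC was 0.88 ± 0.33 above LCC (adjusted p = 0.102, 5 of 6 mice), which was not called, and -0.42 from Paneth (-1.11 to 0.26). Without LCC arrays 5 and 6 these differences from LCC were 0.71 (adjusted p = 0.0625) and 0.29 (adjusted p = 0.534). Without LCC 1, YFP-LRC against LCC became a call (1.14, adjusted p = 0.0156), and it did so without mouse 1 (adjusted p = 0.0355). Without mouse 5 the Paneth call was lost (adjusted p = 0.0708). LCC 5 and 6 are the arrays with the lowest correlation with the others, and the part of this in the Bmpr1a values was not tested.

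The promoters of the receptors, called higher in Paneth, and of Bmp4 and Smad6, called lower there, are shown to set these pairs side by side. RefSeq's promoter table (GRCm38.p6) matched 6 of the 10 genes: Bmp4, Bmpr1a, Bmpr2, Smad6, Id2 and Id3. Each sequence is the 250 bases before the start that the table uses, 5′ to 3′ on the gene's strand. The Bmpr1a window lies inside the annotated extent of its gene, and the Smad6 window overlaps it. Capitals mark matches of GGCGCC, a SMAD1 and SMAD5 binding element, or of CAGAC or GTCTG, the SMAD box, searched on both strands.
Bmpr1a promoter, chr14:34502547-34502796, - strand: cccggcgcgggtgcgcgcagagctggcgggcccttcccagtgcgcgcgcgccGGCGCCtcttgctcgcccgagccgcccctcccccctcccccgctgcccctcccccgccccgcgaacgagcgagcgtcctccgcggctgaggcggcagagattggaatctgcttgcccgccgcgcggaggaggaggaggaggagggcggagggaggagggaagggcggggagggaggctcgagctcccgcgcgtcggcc
Bmpr2 promoter, chr1:59764029-59764278, + strand: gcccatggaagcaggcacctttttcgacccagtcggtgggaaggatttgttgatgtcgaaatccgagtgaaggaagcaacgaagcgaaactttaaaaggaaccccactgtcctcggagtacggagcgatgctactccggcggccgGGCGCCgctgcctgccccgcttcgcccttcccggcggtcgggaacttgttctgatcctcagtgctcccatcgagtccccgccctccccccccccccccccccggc
Bmp4 promoter, chr14:46390670-46390919, - strand: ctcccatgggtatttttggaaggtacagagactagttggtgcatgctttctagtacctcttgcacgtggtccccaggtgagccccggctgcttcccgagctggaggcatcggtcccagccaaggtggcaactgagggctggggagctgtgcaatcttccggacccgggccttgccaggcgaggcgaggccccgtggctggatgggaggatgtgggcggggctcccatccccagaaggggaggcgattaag
Smad6 promoter, chr9:64022060-64022309, - strand: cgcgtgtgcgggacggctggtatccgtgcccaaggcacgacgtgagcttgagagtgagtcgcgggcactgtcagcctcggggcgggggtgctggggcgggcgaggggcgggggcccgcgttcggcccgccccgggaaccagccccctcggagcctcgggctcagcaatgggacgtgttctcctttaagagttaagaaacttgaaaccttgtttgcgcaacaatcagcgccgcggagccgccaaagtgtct
Bmpr1a and Bmpr2 each held 1 GGCGCC, a motif present in 9.59% of the 32851 windows of this length. Bmp4 and Smad6 held none, and none of the 4 held CAGAC or GTCTG, found in 42.2% of windows. Of the other matched genes, Id2 held 1 GGCGCC and Id3 held 2 matches of CAGAC or GTCTG. GC content was 63.2% for Bmp4, 78.8% for Bmpr1a, 64.0% for Bmpr2 and 66.8% for Smad6, against a median of 52.4% over all windows. A match is a string of letters in this window and not a measured binding site.

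**Figure D2:**
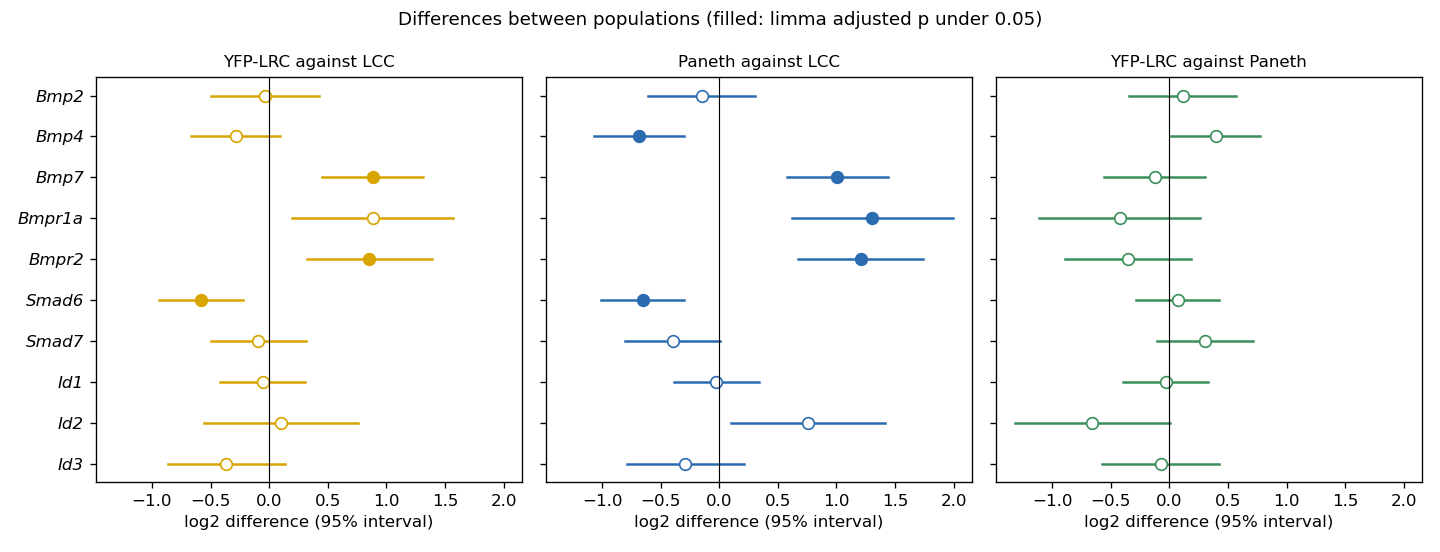
Log2 difference of each of the 10 genes in the 3 comparisons, 1 panel each, with 95% intervals from limma (n = 6 arrays per population). Filled points had an adjusted p under 0.05. Bmp7 was filled in both panels against LCC, at 0.88 and 1.01, and no point was filled in the panel of YFP-LRC against Paneth.

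Smad6, an inhibitory SMAD that acts mainly on BMP receptors, was higher in LCC than in both other populations. Its log2 values were 6.85 to 7.71 (median 7.34) in LCC, 6.24 to 7.10 (median 6.81) in YFP-LRC and 6.54 to 6.98 (median 6.66) in Paneth. The ranges overlapped, and in each of the 6 mice the LCC array was the highest of the 3. Of all genes, 5.34% were lower in all 6 mice in YFP-LRC against LCC and 5.23% in Paneth against LCC. The difference from LCC was -0.58 ± 0.17 in YFP-LRC (adjusted p = 0.0435) and -0.65 ± 0.17 in Paneth (adjusted p = 0.0153), that is, 1.5-fold and 1.57-fold higher in LCC. YFP-LRC and Paneth differed by 0.07 (-0.28 to 0.43). The YFP-LRC call was lost without any 1 of 13 arrays, all but Paneth 1, Paneth 4, LCC 1, YFP-LRC 3 and YFP-LRC 6, and without any mouse but mouse 1, with adjusted p up to 0.104 and 0.119. The Paneth call held without any single array and was lost without mouse 2, 3, 5 or 6 (adjusted p up to 0.0738). Without LCC arrays 5 and 6 the differences were -0.52 (adjusted p = 0.163) and -0.59 (adjusted p = 0.0698).

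Smad7, the inhibitory SMAD that limits both BMP and TGF-beta signalling, was not called in any comparison. Log2 values of Smad7 were 6.35 to 7.02 (median 6.81) in LCC, 6.26 to 7.06 (median 6.66) in YFP-LRC and 5.58 to 6.81 (median 6.37) in Paneth. The lowest value, 5.58, was that of Paneth 3, and the ranges overlapped. Paneth differed from LCC by -0.40 ± 0.20 (unadjusted p = 0.0545, adjusted p = 0.174). YFP-LRC differed from LCC by -0.09 (-0.50 to 0.31) and from Paneth by 0.31 (-0.10 to 0.71). Over its brighter probe sets alone Smad7 was called lower than in LCC, by -0.72 in YFP-LRC (adjusted p = 0.0122) and -0.68 in Paneth (adjusted p = 0.00883). With the mean over its 13 probe sets it was called lower in Paneth than in LCC (-0.34, adjusted p = 0.0418).

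None of the 3 Id genes was called in any comparison. Id1 had nearly equal means of 6.99 ± 0.26 in LCC, 6.94 ± 0.35 in YFP-LRC and 6.97 ± 0.26 in Paneth. Its values ran from 6.70 to 7.47 (median 6.91) in LCC, from 6.37 to 7.34 (median 7.04) in YFP-LRC and from 6.61 to 7.33 (median 6.96) in Paneth. The ranges overlapped almost wholly, and each comparison split the mice 3 to 3. The intervals allow a difference of -0.42 to 0.31 for YFP-LRC against LCC, -0.39 to 0.33 for YFP-LRC against Paneth and -0.39 to 0.34 for Paneth against LCC.

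Id2 had its higher values in Paneth. Its log2 values were 5.92 to 7.27 (median 6.93) in Paneth, 5.22 to 6.62 (median 5.97) in LCC and 4.77 to 6.81 (median 5.98) in YFP-LRC. The ranges overlapped, and the Paneth array was above the YFP-LRC array in all 6 mice and above the LCC array in 5 of 6. Of all genes, 3.07% were lower in YFP-LRC than in Paneth in all 6 mice. The Paneth difference from LCC was 0.76 ± 0.32 (unadjusted p = 0.0262, adjusted p = 0.111), and YFP-LRC against Paneth was -0.66 ± 0.32 (unadjusted p = 0.0508, adjusted p = 0.912). YFP-LRC and LCC differed by 0.10 (-0.56 to 0.76). The spread within populations was wide: the YFP-LRC SD of 0.75 was exceeded by 1.97% of genes. Id2 in Paneth against LCC passed the threshold when the mean over its 4 probe sets was taken (0.88, adjusted p = 0.0251).

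Id3 was most variable in LCC. Log2 values ran from 6.06 to 7.72 (median 6.79) in LCC, from 6.21 to 6.87 (median 6.45) in YFP-LRC and from 6.18 to 7.18 (median 6.41) in Paneth. The LCC arrays of mice 1, 2 and 4 lay above 7 and that of mouse 6 was the lowest of the 18. YFP-LRC differed from LCC by -0.36 (-0.86 to 0.14, adjusted p = 0.359), and Paneth by -0.29 (-0.79 to 0.21, adjusted p = 0.424). YFP-LRC and Paneth differed by -0.07 (-0.57 to 0.43).

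The probe sets of a gene, which read different stretches of it, varied among themselves. Of all probe sets, 2.64% were called in YFP-LRC against LCC, 6.35% in Paneth against LCC and 0.0483% in YFP-LRC against Paneth. All 18 probe sets of Bmpr2 were above 0 in YFP-LRC against LCC (0.04 to 1.73), and 1 was called. In Paneth against LCC 16 of the 18 were above 0 and 5 were called. For Bmpr1a, 15 of 16 were above 0 in YFP-LRC and 14 of 16 in Paneth, with 2 and 3 called. Those called had means over all arrays of 6.42 to 6.85. The brightest Bmpr1a probe sets, with means of 9.52, 9.35 and 8.95, gave -0.50, -0.01 and 0.18 in Paneth against LCC. In YFP-LRC against LCC they gave -0.12, 0.18 and 0.31. Bmp7 had 7 of 8 above 0 in both comparisons with LCC and 1 called in each, with values up to 1.53 and 2.17. Smad6 had 6 of 8 below 0 in YFP-LRC, with 1 called, and 7 of 8 in Paneth, with 0 called by limma at probe set level. Smad7 had 8 of 13 below 0 in YFP-LRC and 11 of 13 in Paneth, with 1 called lower in each. The 4 probe sets of Id3 were all below 0 against LCC, from -0.41 to -0.15 in YFP-LRC and from -0.43 to -0.20 in Paneth, and none was called. Over the brighter probe sets alone, Bmp4 (-0.34, adjusted p = 0.355), Bmpr1a (0.81, adjusted p = 0.0707) and Smad6 (-0.43, adjusted p = 0.074) were not called in Paneth against LCC. In YFP-LRC against LCC, Bmpr2 (0.87, adjusted p = 0.0544) and Smad6 (-0.41, adjusted p = 0.111) were then not called. No probe set of the 10 genes was called in YFP-LRC against Paneth. The gene difference of Bmp4 in Paneth against LCC, -0.68, lies outside the range of its 5 probe sets (-0.64 to -0.11), because the median is taken on each array.

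**Figure D3:**
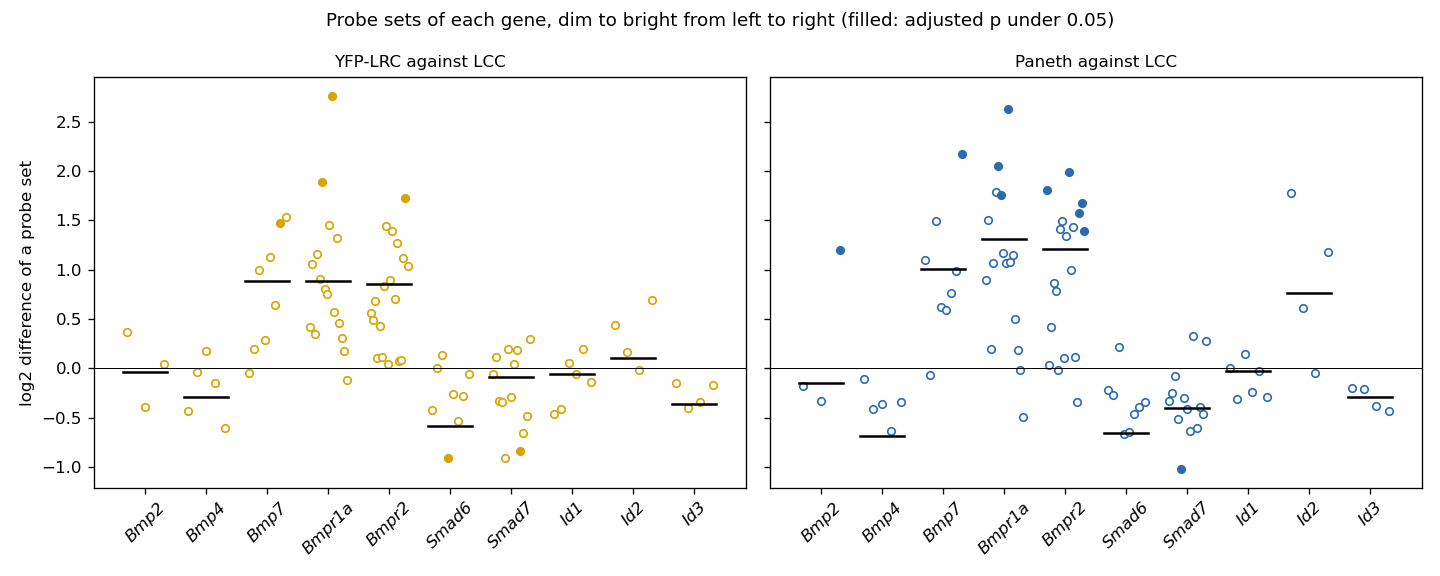
Log2 difference from LCC of each probe set of the 10 genes in YFP-LRC (left) and Paneth (right), ordered within a gene from dim to bright, with the gene value as a black line and filled points at an adjusted p under 0.05. For Bmpr2 in YFP-LRC against LCC all 18 probe sets lie above 0, from 0.04 to 1.73. The 4 probe sets of Id3 lie below 0 in both comparisons with LCC.

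Other genes of the pathway were taken from lists by role, with 85 of 91 genes measured. The other 6 were not analysed here. In YFP-LRC against LCC 7 of the 85 were called higher and 0 lower by limma, beside 6.33% and 0.917% of all genes. There 20 had an unadjusted p under 0.05 (24.8% of all genes), and the median difference was -0.04. In Paneth against LCC 9 were called higher and 0 lower, beside 12% and 2.53% of all genes. There 25 had an unadjusted p under 0.05 (30.2% of all genes), and the median was -0.07. In YFP-LRC against Paneth none was called by limma (0.355% of all genes), with 5 at an unadjusted p under 0.05 (5.52% of all genes). Among 11 further BMP ligands and 15 extracellular antagonists none was called in any comparison, nor among the 4 SMAD transducers or the 13 other BMP target genes. The medians of the 13 target genes were -0.22 in YFP-LRC and -0.18 in Paneth against LCC, beside 0.04 and 0.03 over all genes. Over genes at or below the median gene mean these medians were -0.08 and -0.12, and above it 0.23 and 0.27. Those of the ligands were -0.06 and -0.12, of the antagonists -0.10 and -0.13, and of the SMAD transducers 0.22 and 0.08.

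Of 12 further receptors and co-receptors, Neo1, which encodes neogenin, a receptor of netrins and repulsive guidance molecules, was 0.91 ± 0.27 higher in YFP-LRC (adjusted p = 0.0426) and 0.87 ± 0.27 higher in Paneth (adjusted p = 0.0333) than in LCC. Bambi, a pseudoreceptor that blocks signalling, was 0.72 ± 0.22 higher in Paneth than in LCC (adjusted p = 0.0361, 6 of 6 mice), while in YFP-LRC the difference was -0.16 ± 0.22 (adjusted p = 0.697). YFP-LRC against Paneth was -0.89 ± 0.22 for Bambi (adjusted p = 0.142), lower in 6 of 6 mice. In all 6 mice, 9.73% of all genes were higher in Paneth than in LCC and 3.07% lower in YFP-LRC than in Paneth. Among 13 intracellular regulators, Smurf2, a ubiquitin ligase for SMADs and receptors, was 0.92 ± 0.26 higher in YFP-LRC (adjusted p = 0.0386) and 1.25 ± 0.26 in Paneth (adjusted p = 0.0042). Ppm1a, a phosphatase of SMADs, was 0.98 ± 0.25 higher in YFP-LRC (adjusted p = 0.0274) and 0.87 ± 0.25 in Paneth (adjusted p = 0.0268). Stub1, a ubiquitin ligase known as CHIP, was 0.61 ± 0.16 higher in Paneth than in LCC (adjusted p = 0.0171), with 0.37 ± 0.16 in YFP-LRC (adjusted p = 0.169). Smad2, a transducer of the TGF-beta and activin branch, was 1.02 ± 0.28 higher in YFP-LRC (adjusted p = 0.037) and 0.92 ± 0.28 in Paneth (adjusted p = 0.0359), the only one of 9 measured there to be called.

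E proteins, which Id proteins hold away from DNA, were listed together with tissue bHLH factors, with 9 of 11 genes measured and 3 called. All 3 were called higher in both comparisons with LCC, beside 6.33% of all genes in YFP-LRC and 12% in Paneth. Among genes above the median gene mean these shares were 11.3% and 20.1%. Tcf4, an E protein, had a mean of 6.55 ± 0.15 in LCC, 7.29 ± 0.15 in YFP-LRC and 7.28 ± 0.28 in Paneth, with no overlap between LCC and the others. Higher values without overlap were seen for 1.94% of all genes in YFP-LRC against LCC and 3.58% in Paneth against LCC. Tcf4 was 0.74 ± 0.14 higher in YFP-LRC (adjusted p = 0.00615) and 0.73 ± 0.14 in Paneth (adjusted p = 0.00203) than in LCC. Tcf12, another E protein, was 0.93 ± 0.23 higher in YFP-LRC (adjusted p = 0.0227) and 1.35 ± 0.23 in Paneth (adjusted p = 0.000986). Atoh1, the bHLH factor that specifies the secretory lineage, was 0.93 ± 0.22 higher in YFP-LRC (adjusted p = 0.0194) and 0.86 ± 0.22 in Paneth (adjusted p = 0.0154). The other 6 were not called.

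Several of these calls did not hold when single arrays were left out. In YFP-LRC against LCC, Neo1 was lost without any 1 of 12 arrays (Paneth 2, 3 or 6, LCC 2, 3, 5 or 6, YFP-LRC 1 to 5; adjusted p up to 0.103). Smurf2 was lost without LCC 3, 5 or 6 or YFP-LRC 1 to 5 (adjusted p up to 0.0978), and Smad2 without LCC 2, 3, 5 or 6 or any YFP-LRC array but 2 and 6 (adjusted p up to 0.09). Ppm1a was lost without LCC 5, LCC 6 or YFP-LRC 4 (up to 0.0711), and Tcf12 without LCC 6 or YFP-LRC 5 (up to 0.0562). In Paneth against LCC, Neo1 was lost without Paneth 2, 3, 4 or 6 or LCC 2, 5 or 6 (up to 0.0818). Bambi was lost without Paneth 2, 3, 5 or 6 or LCC 3, 4 or 5 (up to 0.0893). Ppm1a was lost there without Paneth 2, 3 or 4 or LCC 5 or 6 (up to 0.0681), and Smad2 without Paneth 1, 2, 3, 4 or 6 or LCC 2, 3, 5 or 6 (up to 0.0889). Tcf4 held without any single array or mouse in both comparisons, with adjusted p up to 0.0373. Smurf2 and Tcf12 did so in Paneth. Atoh1 held without any single array but was lost without mouse 2, 3, 4 or 5 in YFP-LRC (up to 0.0933) and without mouse 3 or 5 in Paneth (up to 0.0883). Stub1 was lost without mouse 3, 5 or 6 (up to 0.082). With LCC arrays 1 and 4 alone, a choice that can itself lessen differences from LCC, none of these genes was called. With residual spread as a covariate Atoh1 was called in both comparisons (adjusted p 0.0315 in YFP-LRC and 0.0208 in Paneth) and Tcf12 in Paneth (adjusted p = 0.0403), and no other.

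**Figure D4:**
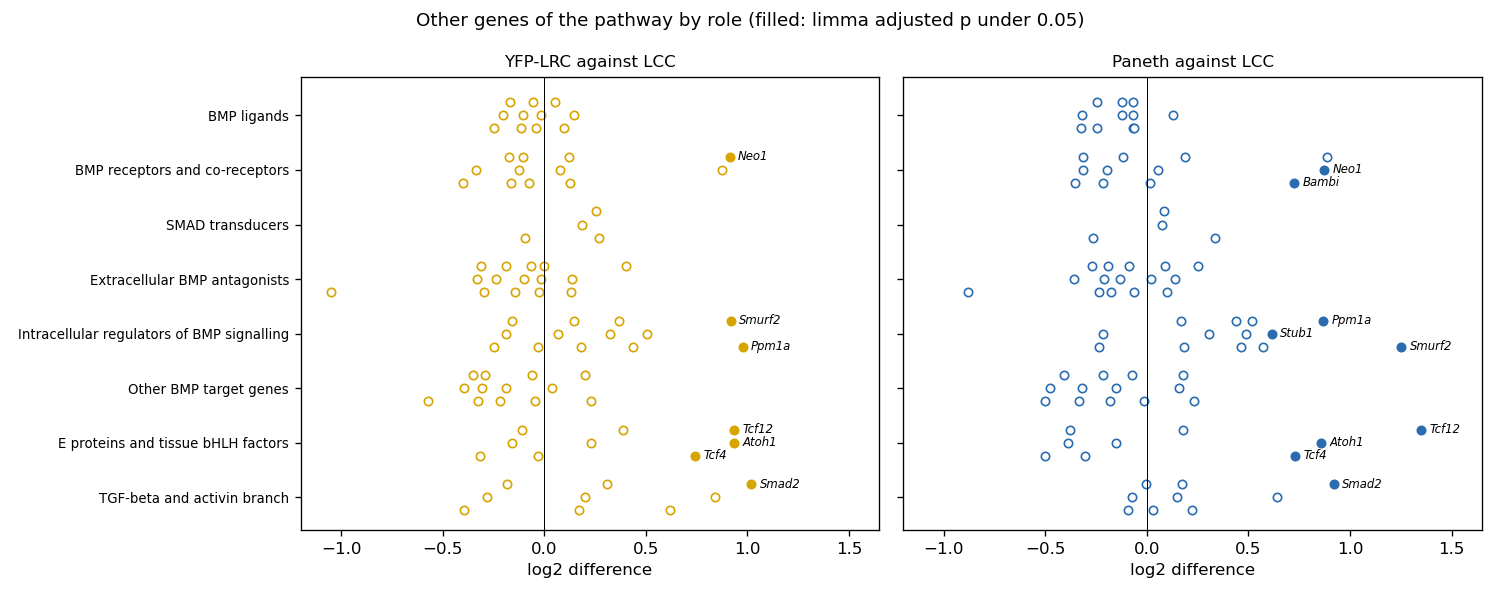
Log2 difference from LCC of YFP-LRC (left) and Paneth (right) for the 85 other pathway genes, in rows by role, with 1 point per gene, shown in each list that holds it. Filled points had a limma adjusted p under 0.05. Tcf4, Tcf12 and Atoh1 are filled in both panels, and the rows of ligands, SMAD transducers, antagonists and target genes hold no filled point.

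The genes whose log2 values moved most like the Id genes over the 18 arrays are given as a description, since arrays of a population share its differences. For Id1 they were Vmn1r237 (Pearson r = 0.769), Dolpp1 (0.702) and Hsd3b6 (0.700). For Id2 they were Marf1 (0.837), Gm7180 (0.774) and Cyria (0.751). For Id3 they were Mrpl35 (0.797), Ube2c (0.795) and Olfr157 (0.775). These r values were picked as the highest over all genes measured on 18 arrays, a choice that favours high values. No pathway gene from the lists was among these 9. The lists hold only 85 of all genes measured, so little can be read from that.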

How the data were processed

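RNA of 3 sorted populations from 6 mice was measured, 8 ng per sample amplified with a NuGEN whole-transcript kit per the labels, on Affymetrix Mouse Exon 1.0 ST arrays. The deposited values are log2 signals, made by the authors with Affymetrix Power Tools 1.12.0 by RMA for core probe sets of mm9, per the file headers. RMA quantile-normalizes all arrays together, so a difference in total RNA per cell is not visible. Both deposited tables hold the same values for 229581 probe sets. The 209279 with exactly 1 gene symbol were used, with names updated through a GRCm38.p6 gene table: of 16380 symbols 14190 were current, 2145 matched a synonym and 45 kept their name. A gene's value was the median over its probe sets. Detection calls, scan batches and RNA quality values were not used here. For arrays, the number of replicates limits the precision.

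Differences were tested with limma 3.58.1 in R 4.3.3 (all 18 arrays, a mean per population, 2-sided, adjusted over 16358 genes), tested on simulated data first. Intervals are 95% intervals of the moderated test. The members, lists and tests were chosen with earlier results of these data known. The 10 genes are named in every comparison, as are pathway genes called in any comparison and the 3 genes most like each Id gene. The same mouse number marks arrays of the same animal, per the design text, and the correlation of same-mouse deviations was -0.114 to 0.406 over 18 pairs. Alternatives covered the summary per gene, probe set and gene filters, normalization, centring, array quality, moderation, arrays in the fit, the mouse as a block, and each array or mouse left out.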

Additional observations from a re-analysis of the deposited data

Results flagged for a closer look

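Of 30 groups (10 genes in 3 populations) 1 held a sample far from its others: Bmpr2 in the YFP-LRC array of mouse 6, at 6.28 on the log2 scale, where the gap to the next array took up most of the whole range. Chance flags about 1 in 20 such groups. The other 5 YFP-LRC arrays were at 7.49 to 7.72. The median correlation of this array with the other 17 was 0.916, the lowest of the YFP-LRC arrays. Its litter label differs from that of the other arrays with its mouse number, and the part of either in the value was not tested.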

How the results depend on the processing

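With the mouse as a replicate block no call of the 10 genes or of the named pathway genes changed: 2 members higher and 1 lower in YFP-LRC against LCC, 3 higher and 2 lower in Paneth against LCC, and 0 and 0 in YFP-LRC against Paneth by limma. Over all genes the block gave 1417, 2590 and 67 calls, against 1185, 2372 and 58 without it. YFP-LRC against Paneth stayed at 0 members in every alternative run.

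For YFP-LRC against LCC, members higher (2) became 1 with the arrays of the compared populations alone, bright probe sets, centring, or LCC arrays 5 and 6 left out, an alternative chosen after seeing the data, and 0 with further quantile normalization, residual spread as a covariate, or LCC 1 and 4 alone. Members lower (1) became 0 with the compared arrays alone, the mean over probe sets, the covariate, LCC 1 and 4, or without LCC 5 and 6. With bright probe sets the 1 lower was Smad7 and not Smad6. For Paneth against LCC, members higher (3) became 1 with the covariate, 0 with LCC 1 and 4, 2 with bright probe sets or without LCC 5 and 6 (Bmpr1a lost in each), and 4 with the mean over probe sets (Id2 gained). Members lower (2) became 1 with bright probe sets (Smad7, with Bmp4 and Smad6 lost) or genes above the median level (Smad6, with Bmp4 left out by the filter), stayed at 2 with the mean over probe sets but as Smad6 and Smad7, and became 0 with the covariate, LCC 1 and 4, or without LCC 5 and 6. Leaving out single arrays or mice gave 0 to 3 higher and 0 to 1 lower for YFP-LRC against LCC, 0 to 0 against Paneth, and 2 to 3 higher and 0 to 2 lower for Paneth against LCC.

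Over all genes, calls in YFP-LRC against LCC were 415 with the compared arrays, 2128 with the mean over probe sets, 614 with quantile normalization, 105 with the covariate, 4 with LCC 1 and 4, and 225 without LCC 5 and 6. In Paneth against LCC the mean over probe sets gave 3988, the covariate 427, LCC 1 and 4 156, and leaving out LCC 5 and 6 1015.

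Signs turned only for differences that were not called. With the mean over probe sets Bmp2 was 0.0045 (YFP-LRC, LCC), -0.23 (YFP-LRC, Paneth) and 0.23 (Paneth, LCC), and Id3 0.039 (YFP-LRC, Paneth). With bright probe sets YFP-LRC against Paneth gave Bmp4 -0.26, Bmp7 0.17, Bmpr2 0.044, Smad7 -0.037, Id1 0.11 and Id3 0.25, and against LCC Id1 was 0.18 in YFP-LRC and 0.071 in Paneth. With array weights Id1 was 0.015 in Paneth against LCC. With the covariate YFP-LRC against LCC gave Bmp2 0.23, Bmp4 0.16, Smad7 0.058 and Id2 -0.37, and Paneth against LCC gave Bmp2 0.14 and Id1 0.013. With LCC 1 and 4 YFP-LRC gave Bmp2 0.18, Bmpr1a -0.080 and Id1 0.029, and Paneth Bmp2 0.072 and Id1 0.058. Without LCC 5 and 6 Id1 was 0.088 in YFP-LRC and 0.12 in Paneth. Leaving out arrays or mice gave, for YFP-LRC against LCC, Bmp2 -0.17 to 0.18, Smad7 -0.21 to 0.040, Id1 -0.16 to 0.060 and Id2 -0.11 to 0.36. For YFP-LRC against Paneth it gave Bmp2 -0.067 to 0.24, Smad6 -0.0086 to 0.18, Id1 -0.14 to 0.11 and Id3 -0.23 to 0.057, and for Paneth against LCC Bmp2 -0.29 to 0.041 and Id1 -0.12 to 0.097. The causes were not tested. Bmp2 has no value under the bright probe set filter, nor do Bmp2, Bmp4 and Id2 under the gene level filter.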
